A study of Mus musculus with 12 samples.

Results

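The 8 genes Cacng1 to Cacng8 encode the gamma subunits of voltage-gated calcium channels and their relatives, the transmembrane AMPA receptor regulatory proteins (TARPs). They are 8 of the 21883 protein-coding genes on the main mouse chromosomes, and each member was read over its gene body plus 20 kb on either side (mm10). The family was chosen by a measured value, the smaller number of bases under H3K27ac peaks in the Cacng5 window in knockout than in wild-type cortex, seen earlier in these same files. Every cKO against WT value at the 8 loci is therefore a description, and the fit that yields it does not count as a test of the family.

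H3K27ac, the acetylation of lysine 27 of histone H3, is found at enhancers and promoters in use. It was profiled at E15.5 in mouse embryos, by sequencing DNA immunoprecipitated from native, nuclease-cut chromatin of lysates of the whole cortex. The conditional knockout (cKO) group of 3 libraries carried Emx1Ires-Cre together with Prdm16flox/flox, and the wild-type (WT) group of 3 libraries was Prdm16 flox/flox without Cre, so both groups carried the floxed allele. Prdm16 encodes a zinc-finger chromatin regulator. Emx1-driven Cre acts in progenitors of the dorsal forebrain and their progeny, so cortical interneurons, vessels and microglia in the lysate come from lineages that it does not reach. The deposited data are a list of peaks for each library, with no read counts, so the sequencing depth is unknown. The labels do not say whether replicates came from separate embryos, so their spread, and the p-values that rest on it, may be technical. Peak lists cannot show whether the floxed exons were lost.

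AMPA receptors carry most fast excitatory transmission in the brain, and TARPs are membrane proteins with a fold related to claudins that bring these receptors to the synapse and slow their closing. Cacng2 (stargazin, disrupted in the stargazer mouse), Cacng3, Cacng4 and Cacng8 encode the type I TARPs. Cacng5 and Cacng7 encode the type II TARPs, which differ in the tail that binds synaptic scaffolds. Cacng1 encodes the gamma subunit of the skeletal muscle calcium channel, and Cacng6 a close relative of it that is also best known from muscle.

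The loci form a pair of clusters and a pair of single genes. Cacng1 (chromosome 11, 107703218 to 107716476), Cacng4 (107732357 to 107794706) and Cacng5 (107874604 to 107915055) lie side by side, and the windows of Cacng1 and Cacng4 overlap. Cacng7 (chromosome 7, 3332027 to 3368221), Cacng8 (3394042 to 3416266) and Cacng6 (3423588 to 3435667) also adjoin, and the windows of Cacng8 and Cacng6 overlap. Cacng3 (chromosome 7, 122671744 to 122769393) and Cacng2 (chromosome 15, 77991919 to 78120220) have no other protein-coding gene in their windows. The annotation gives no exons, so positions are stated only as inside or outside a gene.

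RefSeq promoter sequences (GRCm38.p6, the assembly behind mm10; 250 bases before to 50 after an annotated start) were held for 6 of the 8 members, all but Cacng1 and Cacng4. The 4 printed here show the range among members, from promoters wholly under a peak (Cacng7 and, nearly so, Cacng2) through one only partly covered (Cacng5) to a bare one (Cacng8), with CpG dinucleotides in capitals. Active promoters in mammals are often rich in CpG.
Cacng5, chr11:107915006-107915305, minus strand: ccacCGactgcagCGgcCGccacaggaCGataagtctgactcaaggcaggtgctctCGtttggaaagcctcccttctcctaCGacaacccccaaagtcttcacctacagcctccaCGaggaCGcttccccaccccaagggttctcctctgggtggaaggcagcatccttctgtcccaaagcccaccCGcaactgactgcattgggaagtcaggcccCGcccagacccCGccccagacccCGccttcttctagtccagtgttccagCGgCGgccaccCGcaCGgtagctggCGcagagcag
Cacng7, chr7:3332575-3332874, plus strand: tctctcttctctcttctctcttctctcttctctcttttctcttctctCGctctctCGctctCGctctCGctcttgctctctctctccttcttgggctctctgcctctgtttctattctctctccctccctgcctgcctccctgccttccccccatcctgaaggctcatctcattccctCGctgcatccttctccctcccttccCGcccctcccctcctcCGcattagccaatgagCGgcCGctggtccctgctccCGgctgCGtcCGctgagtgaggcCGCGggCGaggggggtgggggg
Cacng2, chr15:78119231-78119530, minus strand: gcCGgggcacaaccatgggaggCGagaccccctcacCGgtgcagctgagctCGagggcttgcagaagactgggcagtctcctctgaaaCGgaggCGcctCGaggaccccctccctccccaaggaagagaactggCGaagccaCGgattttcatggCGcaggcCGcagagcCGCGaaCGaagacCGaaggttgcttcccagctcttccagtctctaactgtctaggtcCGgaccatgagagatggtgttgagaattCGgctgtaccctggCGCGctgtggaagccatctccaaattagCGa
Cacng8, chr7:3393792-3394091, plus strand: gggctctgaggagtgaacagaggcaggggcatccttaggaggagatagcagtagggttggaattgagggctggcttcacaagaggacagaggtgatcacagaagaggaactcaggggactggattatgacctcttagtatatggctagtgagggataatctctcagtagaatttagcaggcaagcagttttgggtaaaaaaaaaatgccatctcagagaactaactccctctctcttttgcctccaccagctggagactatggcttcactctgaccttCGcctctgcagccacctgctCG

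The Cacng7 promoter, with 15 CpG, lay wholly under a peak in all 6 libraries. The Cacng2 promoter, with 20 CpG, was covered over 300, 300 and 291 of its 300 bases in the cKO libraries and over all 300 in each WT library. The Cacng5 promoter, with 17 CpG, was only grazed: peaks reached 2, 107 and 50 bases of it in cKO and 41, 144 and 0 in WT. The Cacng8 promoter as annotated, with 2 CpG, had no peak in any library. Of the other promoters, that of Cacng3 (9 CpG) varied most between libraries, with 300, 0 and 263 bases covered in cKO and 300, 300 and 0 in WT, while that of Cacng6 (8 CpG) and the second annotated Cacng5 promoter (5 CpG, chr11:107911313-107911612) were bare in all 6. Among the promoters of 17491 genes, 1 per gene, 54.2% met a peak in every library (median 22 CpG) and 40.2% met none (median 3 CpG). The GC box GGGCGG, bound by Sp1-type factors, occurred at 2 positions on either strand in the Cacng5 promoter, at 1 in that of Cacng7 and at none in those of Cacng2 and Cacng8, and 46.3% of all promoters held it. GAAGATGAG, a sequence bound by the distal zinc fingers of EVI1, the product of the Prdm16 paralog Mecom, was in none of the 7 member promoters on either strand, and in 0.366% of all promoters.

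Across the family, the mark was modest in extent, and a smaller share of its regions than genome-wide was found in all 6 libraries. Merging the 6 lists gave 38 separate regions in the 8 windows, and 12 of them were found in all 6 libraries (31.6%, against 46.4% of the 85918 regions genome-wide) and 13 in a single library (34.2%, against 21.2%). WT replicate 2, the longest list, supplied 8 of those 13. As a share of window length, which allows genes to be compared, the order in cKO was Cacng8 (6.53 ± 1.02%), Cacng4 (6.15 ± 1.13%), Cacng6 (3.62 ± 0.823%), Cacng7 (2.91 ± 0.302%), Cacng1 (1.62 ± 0.243%), Cacng5 (1.62 ± 0.525%), Cacng2 (1.61 ± 0.790%) and Cacng3 (1.05 ± 0.391%; SD, n = 3 each). In WT it was Cacng4 (6.49 ± 1.68%), Cacng5 (6.36 ± 3.18%), Cacng8 (6.21 ± 0.716%), Cacng6 (4.01 ± 0.615%), Cacng7 (3.25 ± 0.157%), Cacng1 (2.46 ± 1.04%), Cacng3 (1.49 ± 0.849%) and Cacng2 (1.41 ± 0.606%; SD, n = 3 each). Cacng5 thus stood in sixth place in cKO, where it did not differ beyond the spread from Cacng1 above it or Cacng2 below it, and in second place in WT. With lists cut to equal length it stayed sixth in cKO, at 1.62 ± 0.525%, and stood in the third place in WT, at 3.50 ± 0.684%, behind Cacng8 and Cacng4 (SD, n = 3 each). In the cKO order the steps from Cacng4 to Cacng6 and from Cacng7 to Cacng1 exceeded the spread. In the WT order Cacng4, Cacng5 and Cacng8 did not differ from each other beyond the spread between libraries, nor did neighbours in the run from Cacng7 to Cacng2. The steps from Cacng8 to Cacng6 and from Cacng6 to Cacng7 exceeded that spread, taken as the larger SD of the 2 genes. The median over all genes was 3.68% in WT, and Cacng4, Cacng5 and Cacng8 exceeded 68.0 to 69.7% of genes there.

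**Figure D1:**
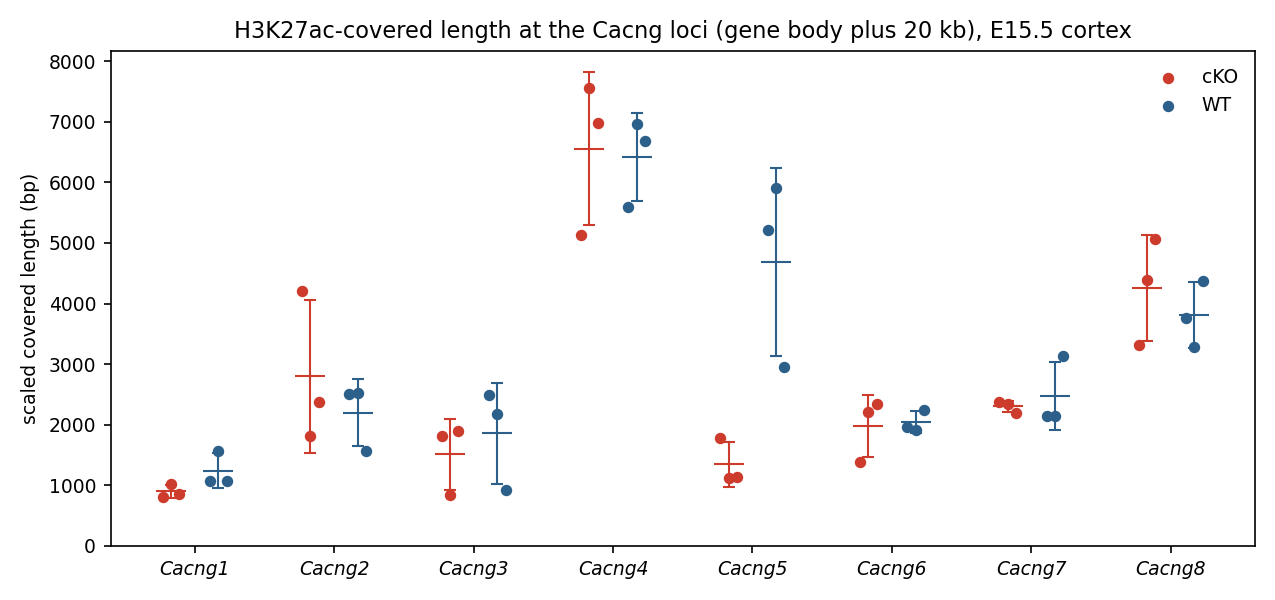
Bases under H3K27ac peaks in each Cacng window, after scaling every library to the same total over all gene windows (y axis, bp). Points are libraries (cKO left of WT at each gene), dashes and bars the mean and SD (n = 3). Cacng5 has all 3 cKO libraries between 1118 and 1779 bp, below the lowest WT library at 2945 bp.

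Cacng5 accounted for the clear difference within the family. Before scaling, peaks covered 1790, 1106 and 1018 bp of its window in the cKO libraries and 5864, 7215 and 2266 bp in the WT libraries. All 3 cKO libraries lay below all 3 WT libraries, and WT replicate 3, which has the shortest list in the series, lay nearest to cKO. After scaling, the means were 1346 ± 375 bp in cKO and 4693 ± 1552 bp in WT (SD, n = 3), and limma gave a log2 change of -1.46 ± 0.16 (SE) on the scale of scaled length plus 500 bp. Within the batch of replicates 1 and 2 the log2 difference was -1.66, and for the single pair of replicate 3 it was -1.07. Cacng5 was the 1 member of 8 among the genes called at a limma adjusted p below 0.05 over all genes. That rule called 0.274% of 15350 genes, 0.150% with shorter covered length in cKO, and nothing is read from the comparison because the contrast chose the family.

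Because longer lists cover more, the same window was read in lists cut to equal length. There the Cacng5 window held 1790, 1106 and 1018 bp in cKO and 3366, 2823 and 2266 bp in WT. The groups still did not overlap, but the log2 change was -0.86 and the gene was no longer called. The call was also lost without WT replicate 2 (-1.35), WT replicate 3 (-1.67) or cKO replicate 3 (-1.66), and with peaks kept at a -log10 q of 5 or more the window fell under the length filter, with 398, 337 and 165 bp in cKO and 1374, 2823 and 0 bp in WT. Summed body coverage of a list of microglia and blood markers moved the same way. In the lists as deposited, without scaling, it was 0 to 423 bp in cKO and 536 to 1687 bp in WT, with no overlap. Of the 5 listed genes, Aif1, Hbb-bt and Gata1 were bare in every library and none had a peak in all 6. In scaled gene windows, 5.84% of all genes tested had cKO below WT without overlap. No such share was computed for unscaled body coverage, so nothing is read from the lack of overlap. The part of this marker list in the Cacng5 difference was not tested. In bulk tissue, fewer cells bearing a mark and less mark per cell cannot be told apart.

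Read peak by peak, the start-site region of Cacng5 had similar mean lengths in the genotypes, while some other regions of the window, not all, differed. The region at the start site (107914682 to 107915149) held 182, 337 and 165 bp of peak in cKO and 365, 310 and 0 bp in WT, so 5 of 6 libraries had it and the exception was WT replicate 3. Its means were 228 ± 94.8 bp in cKO and 225 ± 197 bp in WT (SD, n = 3). The WT mean includes the 0 of WT replicate 3. The peak caller's own fold enrichment there was 4.26, 5.70 and 5.51 in cKO and 4.86 and 4.85 in the WT libraries with a peak.

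Inside the gene, the region 14455 bp downstream of the start site (107899120 to 107900600) was called in all 6 libraries but over different widths. Peaks spanned 398, 311 and 349 bp of it in cKO and 1411, 1481 and 939 bp in WT. The fold enrichment of those peaks was 5.32, 3.998 and 4.24 in cKO and 3.87, 4.44 and 4.01 in WT. Each ratio belongs to a peak of its own width, so these values do not compare the signal over the same bases. This region made up 24.3% of the difference between the mean unscaled lengths of the window. The next contribution, 19.7%, came from a region near the far end of the gene (107876050 to 107877450), with 399, 0 and 0 bp in cKO and 1373, 1275 and 0 bp in WT. Another internal region (107903851 to 107905110) gave 15.4%, with 0 bp in each cKO library and 499, 1260 and 0 bp in WT. Both of these lacked a peak in WT replicate 3, so the groups overlapped there or met at 0.

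Upstream of the region at the start site, no cKO library had any peak within the window. The region at 107917632 to 107918302, intergenic and 2577 bp from the start site, had peaks of 581, 638 and 490 bp in WT. It was the sole region in the 8 windows with a peak in all 3 libraries of one genotype and in none of the other, a pattern seen in cKO alone at 0.347% of all regions and in WT alone at 0.907%. These peaks were weak: their -log10 q, as the authors' caller gave it, was 3.18, 2.18 and 3.54, and in equal-length lists the region no longer met the rule. A second upstream region (107930724 to 107931349), close to the neighbouring gene Prkca, had 626 and 522 bp in WT replicates 1 and 2 and 0 bp elsewhere. Beyond the gene's other end, the region at 107867284 to 107868326 had 811, 458 and 504 bp in cKO and 1009, 1032 and 837 bp in WT.

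**Figure D2:**
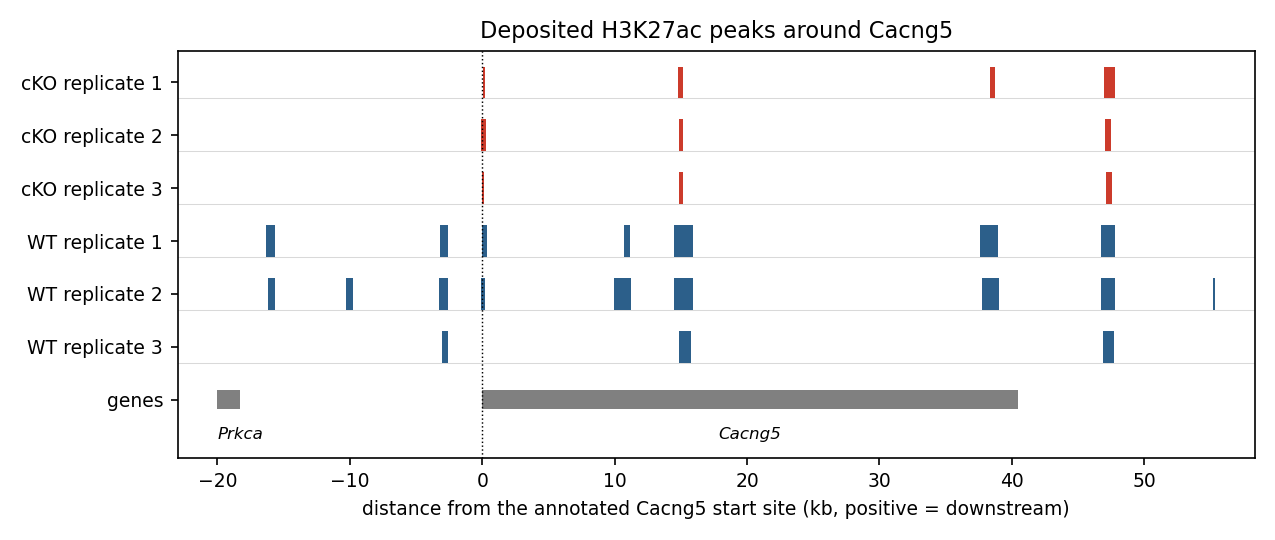
Peaks as deposited in each library (rows, cKO above WT) against distance from the annotated Cacng5 start site (kb, positive downstream), with gene bodies in grey. Upstream of the peaks at the start site the cKO rows are empty, whereas each WT library has the peak whose near edge lies 2577 bp away.

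**Figure D3:**
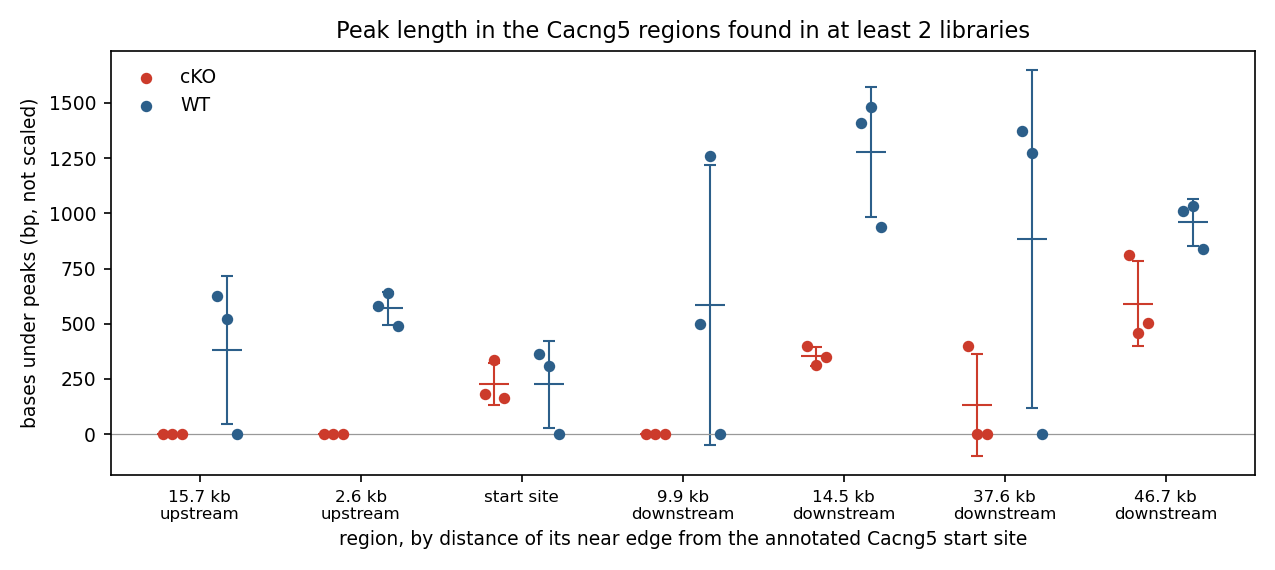
Bases under peaks (y axis, not scaled) in the Cacng5 regions found in at least 2 libraries, ordered along the gene (x axis). Points are libraries (cKO left of WT), dashes and bars the mean and SD (n = 3); the start-site region averages 228 bp in cKO and 225 bp in WT, while the region 14455 bp downstream averages 353 bp in cKO and 1277 bp in WT.

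The surroundings of Cacng5 set a limit to that pattern. A region 11611 bp past the upstream edge of the window, inside Prkca (107946666 to 107948096), ran the other way, with 1431, 758 and 696 bp in cKO and 0, 712 and 0 bp in WT. Past the other edge, 3924 bp away, the region at 107849522 to 107850680 held 810, 547 and 1159 bp in cKO and 576, 742 and 0 bp in WT. With 100 kb on each side of the gene, covered length before scaling was 12736, 12452 and 12775 bp in cKO and 21974, 24984 and 11898 bp in WT. The unscaled WT values then lay on both sides of the cKO values, and the low one was WT replicate 3, which has the shortest list. Whether the groups overlap in this wider window after scaling is not shown here. The log2 change, fitted after scaling, was -0.47. Prkca itself, which encodes a protein kinase C isoform, had 24757 ± 568 scaled bp in cKO and 31419 ± 3843 scaled bp in WT (SD, n = 3, log2 change -0.33, limma adjusted p = 0.310). All 3 cKO values of Prkca, at most 25171 scaled bp, lay below all 3 WT values, at least 27202 scaled bp. That pattern was shown by 5.84% of all genes tested. The Prkca window takes in the Cacng5 start site and the regions upstream of it, so the values of the 2 genes are not independent.

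Cacng7, the other type II TARP gene, differed little on average. A single region at its start (3331449 to 3333971) carried almost all its mark, with 2388, 2314 and 1958 bp in cKO and 2413, 2309 and 2406 bp in WT. Its fold enrichment was 10.6, 11.3 and 10.5 in cKO and 10.6, 10.3 and 8.61 in WT, the highest of any member region in each library but WT replicate 1, where the Cacng2 start-site region had 10.9. It ranked within the top 11.2 to 22.7% of peaks of its own list in every library. The scaled length of the window averaged 2303 ± 93.5 bp in cKO and 2473 ± 567 bp in WT (SD, n = 3), with a log2 change of -0.07 ± 0.12 (SE) and overlapping groups. The batches went opposite ways, at 0.11 within the batch of replicates 1 and 2 and -0.43 for the replicate 3 pair.

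Among the type I TARP genes, none was called and the groups overlapped at all 4. Cacng4 had the longest covered length of the family, 5173, 7475 and 6228 bp in cKO and 6279, 8508 and 5137 bp in WT. Its main region, at the high-coordinate end of the gene (107791852 to 107795618), was nearly constant, with 3653, 3685 and 3453 bp in cKO and 3440, 3650 and 3370 bp in WT. A second region inside the gene (107762111 to 107764135) was shared by all 6 libraries. Another, weak one (107777231 to 107777697) had 297, 351 and 430 bp in cKO and 0, 333 and 0 bp in WT. The log2 change at Cacng4 was 0.02 ± 0.14 (SE), while Cacng5, its neighbour, had the -1.46 given above.

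Cacng8 was also much alike in the genotypes, with 3342, 4335 and 4516 bp in cKO and 4219, 4014 and 3366 bp in WT and a log2 change of 0.13 ± 0.12 (SE). Its strongest region (3389409 to 3392109) lay outside the gene, 1933 bp upstream of the annotated start that had no peak, and measured 1946, 2149 and 2436 bp in cKO and 2017, 2009 and 1637 bp in WT. That region lies 1188 bp outside the Cacng7 window, so it counts for Cacng8 alone. Of the Cacng8 regions inside the gene, the one at 3414921 to 3415904 was missing in cKO replicate 1 and present in the other 5 libraries.

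**Figure D4:**
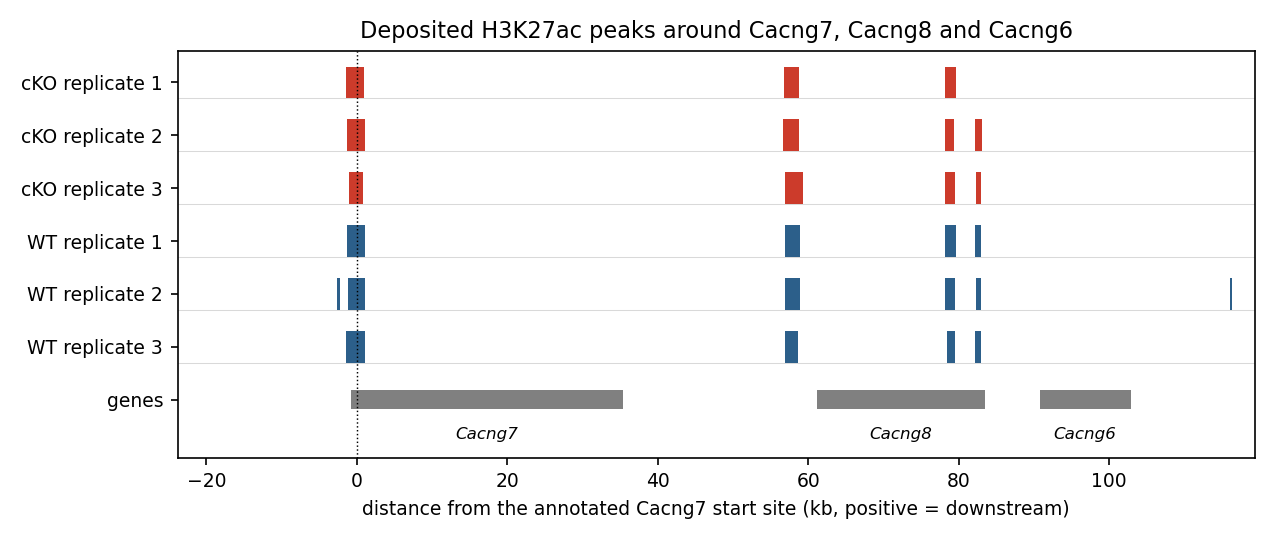
Peaks as deposited in each library (rows, cKO above WT) around Cacng7, Cacng8 and Cacng6 against distance from the annotated Cacng7 start site (kb, positive downstream), with the bodies of these 3 genes in grey. The start of Cacng7, the stretch before Cacng8 and a stretch inside Cacng8 carry peaks in all 6 libraries, and the Cacng6 body carries none.

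Cacng2 had 4236, 1787 and 2112 bp in cKO and 2813, 3083 and 1198 bp in WT. The high value of cKO replicate 1 went with peaks of 629 and 527 bp inside the gene that no other library had, and the log2 change of 0.25 ± 0.22 (SE) turned to -0.015 without that library. The start-site region (78119014 to 78120231) was steady, at 1002, 1087 and 952 bp in cKO and 1022, 1218 and 1025 bp in WT. The window ends 21 bp short of a region with 1893 to 2566 bp in each of the 6 libraries (77969333 to 77971898), which is therefore not counted.

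Cacng3 had 1822, 827 and 1683 bp in cKO and 2801, 2645 and 704 bp in WT, with a log2 change of -0.21 ± 0.28 (SE). The batches went opposite ways there, at -0.69 within the batch of replicates 1 and 2 and 0.75 for the replicate 3 pair. Its start-site region (122670560 to 122672259) measured 897, 235 and 961 bp in cKO and 1700, 1345 and 0 bp in WT. A region 66477 bp into the gene (122738221 to 122739093) was present throughout, at 708, 592 and 722 bp in cKO and 859, 786 and 704 bp in WT, and its fold enrichment was 5.05, 5.04 and 6.48 in cKO and 7.13, 6.90 and 5.70 in WT.

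The muscle-type channel subunit genes had hardly any mark of their own. The Cacng6 body was free of peaks in all 6 libraries, and the 1396, 2186 and 2080 bp of its window in cKO and the 2202, 2340 and 1729 bp in WT came from regions inside Cacng8, apart from 335 bp in WT replicate 2. The Cacng1 body had no peak in cKO, against 392, 297 and 0 bp in WT. The whole window held 817, 1012 and 767 bp in cKO and 1197, 1916 and 825 bp in WT. Apart from the Cacng1 body these bases lay inside Helz, a helicase gene, mostly in a region that the window edge cuts (107682730 to 107684472). After scaling, all 3 Cacng1 values in cKO (812 to 1023 bp) were below those in WT (1066 to 1570 bp), as were those of Cacng5, which makes 2 of 8 members. Of all genes tested, 5.84% showed cKO below WT without overlap and 6.72% the reverse, and nothing is read from the members' count. The Cacng1 log2 change was -0.30 ± 0.13 (SE), without a call.

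Over the 8 members the median log2 change was -0.06, with 3 positive and 5 negative, and over all 15350 genes it was 0.03, with 9048 positive and 6302 negative. Overlapping windows mean that the members are not independent of each other. The 7 members other than Cacng5 ranged from -0.30 to 0.25.

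The rest of the AMPA receptor and calcium channel machinery, a list of 52 genes drawn up with earlier results of these data known, showed no called gene in either direction by limma, where the rule called 0.274% of all genes. An unadjusted p below 0.05 was found for 5 of 51 tested genes (9.8%), against 10.1% of all genes tested. Of the list, 51 had enough mark to be tested, 31 with positive and 20 with negative log2 changes, and the median was 0.03, the same as over all genes. The 4 AMPA receptor subunit genes ran from -0.27 ± 0.14 at Gria1 to 0.12 ± 0.10 at Gria3 (SE), with -0.08 at Gria2 and 0.01 at Gria4.

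Among 13 other AMPA receptor auxiliary and assembly genes, the lowest p values belonged to Shisa8 (-0.43 ± 0.16), Gsg1l (0.30 ± 0.13), Shisa9 (0.32 ± 0.15) and Shisa6 (0.12 ± 0.11; SE), and the Shisa genes encode a further class of auxiliary subunits. Among 16 scaffold and trafficking genes they belonged to Nsf (0.28 ± 0.09), whose ATPase product recycles membrane fusion complexes, Magi2 (0.18), Dlg2 (-0.18) and Camk2a (0.16). Nsf had the smallest limma adjusted p of the list, 0.320, with 12301 ± 111 bp in cKO and 10022 ± 125 bp in WT (SD, n = 3). Among 18 other calcium channel subunit genes they belonged to Cacna1h (-0.39 ± 0.15), Cacnb3 (0.22 ± 0.09), Cacna2d4 (0.44 ± 0.21) and Cacna1s (-0.22 ± 0.11; SE), which encodes the pore of the channel that Cacng1 joins in muscle.

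**Figure D5:**
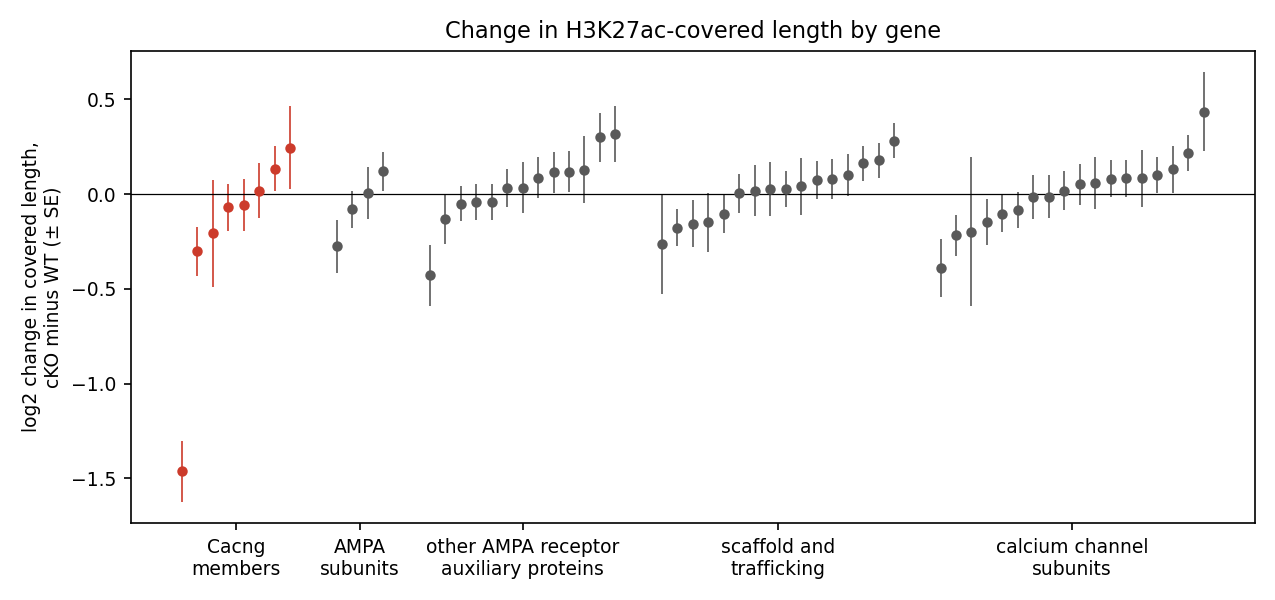
Log2 change in scaled covered length, cKO minus WT, with SE (y axis), for each of the 8 Cacng genes (red) and the 51 tested genes of the AMPA receptor and calcium channel list (grey), sorted within each group (x axis). Cacng5 lies at -1.46, and every other point lies between -0.43 and 0.44.

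The covered length around Helz, whose body reaches into the Cacng1 window, was not called. It measured 5619 ± 389 scaled bp in cKO and 7472 ± 1322 scaled bp in WT (SD, n = 3, log2 change -0.37, limma adjusted p = 0.328). As at Prkca, all 3 cKO values, at most 5922 scaled bp, lay below all 3 WT values, at least 5986 scaled bp. That pattern was shown by 5.84% of all genes tested. With its own flanks the Helz window takes in the regions counted for Cacng1, so the values of Helz and Cacng1 are not independent.

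The genes whose scaled log2 covered length ran most closely with Cacng5 over the 6 libraries were Elfn2 (Pearson r = 0.993), Wdr59 (0.992), Hapln3 and Mfge8 (0.992 each, from a window they share) and Cdkal1 (0.991), out of 15334 genes compared. These 6 points share genotype and list length, and the genes were ranked on this r, so it is a description. The changes themselves were smaller, with log2 values of -0.43 at Elfn2, -0.39 at Wdr59, -0.16 at Hapln3 and Mfge8 and -0.20 at Cdkal1, and none was called.

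The lists held 55015 to 59209 peaks in cKO and 48168 to 75563 in WT. Markers of the labelled tissue were present: all 13 cortical progenitor and neuron genes and all 5 interneuron genes listed had a peak in the gene body in every library. Other cell types were not without signal: 1 of 4 oligodendrocyte-lineage genes, 2 of 3 endothelial genes and 1 of 5 skeletal muscle genes had a body peak in every library. Olig1, Olig2 and Sox10 had none in any library, nor did the muscle factor genes Myod1, Myog and Myf5. The summed body coverage of these 3 lists overlapped between genotypes. No tested marker gene was called in the covered-length comparison. Tested were all 13 cortical and all 5 interneuron genes. Of the others, 2 of 4 oligodendrocyte-lineage, 3 of 5 microglia and blood, 2 of 3 endothelial and 3 of 5 skeletal muscle genes were tested.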

How the data were processed

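The authors deposited 1 broad peak list for each of 6 H3K27ac libraries; the 6 input libraries were not analysed here. Per the labels' protocols, chromatin was digested with micrococcal nuclease. The tools named are MACS2 2.1.1, Bowtie2 2.2.8, cutadapt and FastQC, with mm10, per the submitters' processing notes; their roles, parameters, any pooling and the use of input are not given in what was used here. For every peak the deposited lists hold a fold enrichment ratio, -log10 p and q values and a score that went unused, all the authors' own, used only to describe, rank or filter peaks within a list. Lists hold no counts, so depth is unknown and no counting interval is given.

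Covered length counts the peak-covered bases of a gene with 20 kb on either side (RefSeq table of GRCm38.p6, protein-coding genes). It was scaled to the same total over all gene windows, log2 transformed after adding 500 bp, and fitted for genes with a mean of at least 1000 bp (15350) with limma 3.58.1 (R 4.3.3; lmFit, eBayes), with the library identifier in the file names (replicates 1 and 2 in one batch, 3 in the other) as covariate. A call needed a Benjamini-Hochberg adjusted p under 0.05. Log2 changes are cKO minus WT on the length plus 500 bp scale, which understates changes where covered lengths are short. Regions were peaks of the 6 lists merged where they overlapped or touched. Python 3.11.15, numpy 2.4.6, pandas 2.3.3 and matplotlib 3.10.9 were used, and scripts were tested on simulated data.

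Members, lists and tests were chosen with earlier results of these data known. Named were all members, genes in their windows (1 of them is not reported here), up to 4 genes per sub-list with the smallest p, and the 5 genes most correlated with Cacng5. Regions had to be in 1 genotype only or to have the highest lowest-library -log10 q; other regions were named after their values were seen. Alternatives were stricter peaks, equal-length lists, each library left out, other covariates, pseudocounts, filters, scalings and windows, and other region rules.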

Additional observations from a re-analysis of the deposited data

How the results depend on the processing

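At Cacng5 the change was negative in all 17 alternatives in which it was tested and was called in 10. The call was lost in equal-length lists (log2 change -0.86), without the length filter (-1.46), without scaling (-1.53) and over the wider window of 100 kb each side (-0.47). With libraries left out the change ranged from -1.67 to -1.26, and the call was lost in 3 of the 6 fits (without cKO replicate 3, WT replicate 2 or WT replicate 3). No other member was called under any alternative. Signs of members that were not called turned as follows. With the gene body plus 100 kb, Cacng2 was -0.050, Cacng3 0.35, Cacng4 -0.13, Cacng6 0.037 and Cacng8 -0.066. In equal-length lists Cacng4 was -0.034 and Cacng6 0.11, without scaling Cacng4 was -0.059, and with the gene body alone Cacng7 was 0.0040. Cacng2 was -0.071 for stricter peaks (-log10 q of 5 or more) and -0.049 within 2 kb of either gene end. With libraries left out, the ranges were -0.015 to 0.57 for Cacng2, -0.69 to 0.16 for Cacng3, -0.12 to 0.17 for Cacng4, -0.19 to 0.11 for Cacng6 and -0.13 to 0.11 for Cacng7. The cause of these turns was not tested.

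The 42 genes called overall became 21 with stricter peaks, 16 without the batch covariate, 12 and 107 with pseudocounts of 100 and 2000 bp, 6 without the filter, 1 without scaling, 22 after quantile normalization and 0 within 2 kb of either gene end (limma, with 734 at an unadjusted p below 0.05). With libraries left out it was 2 to 73: 73 without cKO replicate 2, 10 without WT replicate 1, 3 without WT replicate 2 and 2 without cKO replicate 3 or WT replicate 3. Scaling to the total of the whole list, an alternative chosen after seeing the data, gave 106. The replicate block gave 67 and kept the Cacng5 call; same-numbered libraries correlated at 0.131, 0.0631 and 0.261 in their deviations, and cKO replicate 1 correlated better with WT replicate 2 (0.167), so the numbers were not taken as pairs. The AMPA receptor and calcium channel list had 0 calls in every alternative (limma, 1 to 9 genes at an unadjusted p below 0.05). WT-only regions in the windows numbered 1 (779 over the genome), but 0 with stricter peaks (390) or equal-length lists (580). With at least 50% of the region covered they numbered 2 (882 over the genome). With libraries left out they numbered 1 to 4. The 4 came without WT replicate 3, where the genome held 4494. cKO-only regions numbered 0 (298 over the genome), and 0 to 1 with libraries left out. The 1 came without WT replicate 2, where the genome held 1016.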
